A study of Mus musculus with 12 samples.

Results

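Collagen chain genes were taken as every row whose gene name consists of Col, a number, the letter a and a number. There were 44 such genes among the 36883 rows of the mRNA table, 11 for fibrillar collagens, 6 for the type IV collagens of basement membranes and 27 for other types. The long RNA table held 43 under the same rule, because Col4a5 shares a row with a predicted gene there. All 44 matched collagen genes of the RefSeq annotation of GRCm38.p6.

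The libraries came from Drosha-deficient and wild-type mouse embryonic stem (ES) cells, which are pluripotent cells of the early embryo kept in culture. Drosha is the nuclear ribonuclease that releases microRNA hairpins from their primary transcripts. Cultures of both genotypes were kept in medium containing serum and leukemia inhibitory factor; the RNA labels give genotype and cell type only, whereas the labels of the methylation samples name the line AB1 (129Sv/Ev) for the wild type and say that the Drosha-deficient cells were derived from it. The labels do not state how many clones stand behind the Drosha-deficient cells or which part of the Drosha locus is disrupted. Each genotype had 1 library of mRNA selected by its poly(A) tail and 1 of long RNA, so no difference has a replicate check and no test was made. Levels are given in FPKM, the authors' number of fragments per kilobase of transcript relative to library size. Judged from single-exon olfactory receptor genes, 1 fragment on 1 kb of transcript was worth 0.0412 FPKM in the Drosha-deficient and 0.0464 FPKM in the wild-type mRNA library, and 0.0458 FPKM in the Drosha-deficient and 0.0544 FPKM in the wild-type long RNA library.

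Collagens are built from 3 chains wound into a triple helix, and the chains that can assemble together define a type. Fibrillar collagens form the banded fibrils of connective tissue, type IV collagen forms the sheet on which epithelia and early embryonic layers rest, and the remaining types decorate fibrils, anchor sheets or span membranes. Procollagen chains are hydroxylated and folded in the endoplasmic reticulum, exported in large carriers, trimmed by proteases and crosslinked outside the cell. ES cells rest on and secrete basement membrane proteins, while fibrillar collagens are mainly products of mesenchymal cells.

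Among known regulators of collagen mRNAs is the microRNA family miR-29, which was described as a repressor of collagen and other matrix genes in fibroblasts. Its members depend on hairpin processing and were measured in the short RNA fraction of the same cells. Their mature sequences from RefSeq (GRCm38.p6) are shown because they share 1 seed, bases 2 to 8 from the 5′ end, given in capitals.
miR-29a-3p: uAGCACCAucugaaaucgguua
miR-29b-3p: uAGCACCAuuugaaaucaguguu
miR-29c-3p: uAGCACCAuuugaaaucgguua
Counted from the 5′ end, miR-29c differs from miR-29a by C10U, and miR-29b by C10U, G18A, U21G and A22U, beside 1 more base at its end. The Mir29a row stood at 26.3 FPKM in Drosha-deficient and 1216 FPKM in wild-type short RNA, 46.3-fold lower. The row that joins Mir29b-2 and Mir29c with a host transcript stood at 13.2 FPKM in Drosha-deficient and 261 FPKM in wild-type cells, 19.8-fold lower, and the row holding Mir29b-1 at 0.943 FPKM in Drosha-deficient and 6.43 FPKM in wild-type cells. All 3 rows of the family were thus below wild type in the Drosha-deficient library, and their part in the collagen levels was not tested. The Drosha transcript itself followed the labels, at 6.22 FPKM in Drosha-deficient and 42.1 FPKM in wild-type mRNA and at 4.34 FPKM in Drosha-deficient and 21.2 FPKM in wild-type long RNA.

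In mRNA, most collagen genes that could be assessed had lower levels in Drosha-deficient than in wild-type cells, with type I collagen far in front. On the other side, Col6a6 had the largest difference and Col18a1 the highest level. A gene passed the filter if its status in the table was OK and its level reached 1 FPKM in either library; it was called lower or higher if the Drosha-deficient minus wild-type difference of log2(FPKM + 1) was at least 1 in size, a 2-fold change. Of the 44 genes 21 passed, and 7 of these (33.3%) were called lower, where 7.93% of the 14752 rows that passed in the whole mRNA table were. Higher was called for 1 collagen gene (4.76%), where 8.64% of all rows were, and 13 had neither call. The median log2 difference of the 21 genes was -0.83, against 0.01 over all rows that passed. Of the 21, 10 passed only through their wild-type level and 2 only through their Drosha-deficient level, so the count of lower calls and the median are shaped by which genes could pass. Without a minimum level the median was -0.09. Over all 44 genes, with no filter, 27 were below and 17 above their wild-type level. Over all mRNA rows, 12734 were below and 12068 above.

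Long RNA gave the same direction with fewer genes. Of 43 collagen genes 15 passed, 8 of them only through the wild-type library and 0 only through the Drosha-deficient one. Lower was called for 5 (33.3%), where 6.89% of the 13933 rows that passed in the whole long RNA table were, and higher for 0, where 6.26% of all rows were. The median log2 difference was -0.65 for the 15 genes and -0.04 for all rows that passed. Which genes could pass shapes this median and the count of lower calls. Without a minimum level the median of the collagen genes was -0.09. Without a filter, 29 collagen genes were below and 14 above wild type, where 13811 of all long RNA rows were below and 12297 above.

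**Figure D1:**
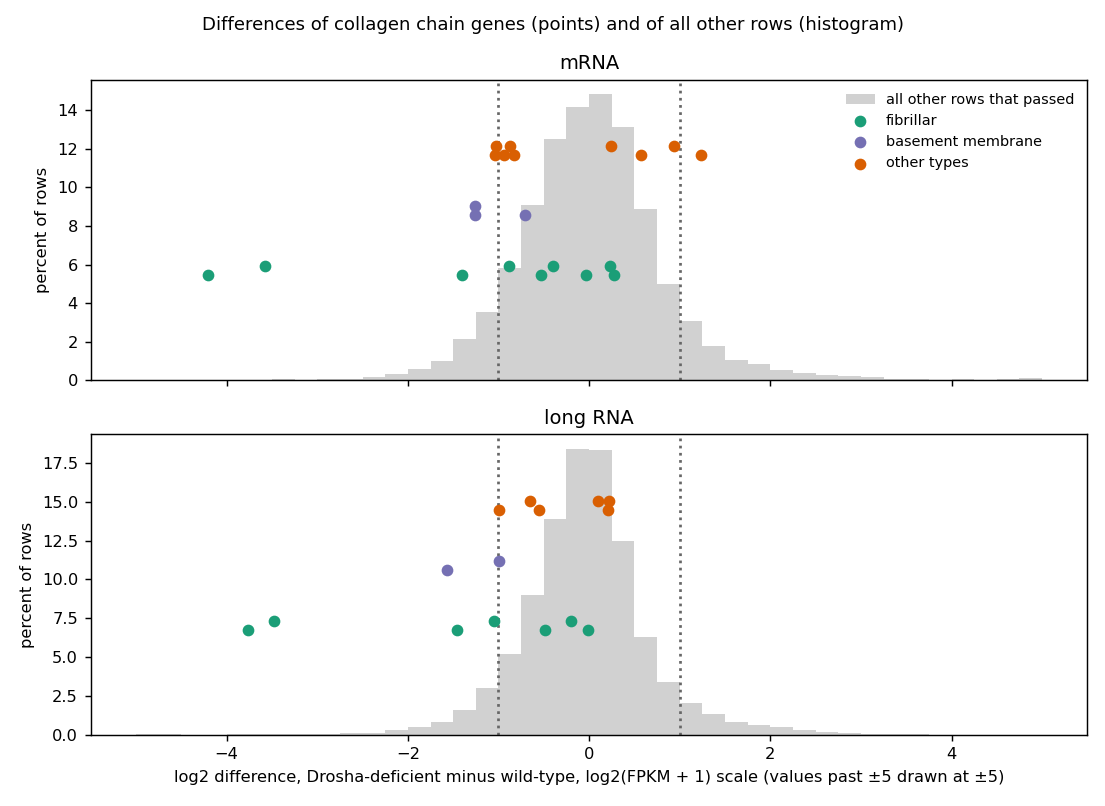
Log2 differences on the log2(FPKM + 1) scale, Drosha-deficient minus wild-type, for the collagen chain genes that passed (points, by class, set at arbitrary heights) over the percent of all other rows that passed (grey histogram), in mRNA above and long RNA below; dotted lines mark the 2-fold call. In mRNA, 7 points lie left of the lower line and 1 right of the upper line, and the type I genes lie at -3.58 and -4.20.

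Fibrillar genes held the largest differences. In mRNA 9 of 11 passed, 3 were called lower and 6 had neither call, with a median log2 difference of -0.53; their summed level was 17.0 FPKM in Drosha-deficient and 100.3 FPKM in wild-type cells, 5.90-fold lower. In long RNA 7 of 11 passed, 4 were called lower and 3 had neither call, with a median of -1.05 and sums of 5.15 FPKM in Drosha-deficient and 36.0 FPKM in wild-type cells. Lower calls were 33.3% in mRNA and 57.1% in long RNA, against 7.93% and 6.89% of all rows that passed. Of the fibrillar genes, 4 in mRNA and 5 in long RNA passed only through their wild-type level, which shapes these counts and medians. Without a filter, 7 were below and 4 above wild type in mRNA, and 10 and 1 in long RNA. The sums rest on both type I genes: without them the fibrillar sum was 12.8 FPKM in Drosha-deficient and 20.8 FPKM in wild-type mRNA, 1.63-fold lower, and 5.02 FPKM and 11.8 FPKM in long RNA, 2.35-fold lower.

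Type I collagen, the main fibril collagen of bone, skin and tendon, is assembled from the products of Col1a1 and Col1a2. Col1a1 (chr11:94936224-94953042, mm10/GRCm38) had 4.10 FPKM in Drosha-deficient and 59.9 FPKM in wild-type mRNA, 14.6-fold lower. In long RNA it had 0.111 FPKM in Drosha-deficient and 11.3 FPKM in wild-type cells, 102-fold lower. Col1a1 was the collagen gene of highest level in wild-type mRNA and the fifth in Drosha-deficient mRNA. Col1a2 (chr6:4504814-4541543) had 0.116 FPKM in Drosha-deficient and 19.6 FPKM in wild-type mRNA, 168-fold lower, the largest drop among the collagen genes that passed in that fraction. Its long RNA values were 0.0162 FPKM in Drosha-deficient and 12.9 FPKM in wild-type cells. That Drosha-deficient long RNA value corresponds to an estimated 0.354 fragments per kilobase of transcript, so the ratio of 791 between both libraries rests on very few fragments. The log2 differences, which the added 1 FPKM keeps from growing with such low values, were -4.20 in mRNA and -3.77 in long RNA for Col1a2 and -3.58 and -3.47 for Col1a1.

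Both type I genes were low together. The Col1a1 to Col1a2 ratio of FPKM was 35.2 in Drosha-deficient and 3.06 in wild-type mRNA, and 6.85 in Drosha-deficient and 0.882 in wild-type long RNA. The Drosha-deficient ratios divide by Col1a2 at an estimated 2.82 fragments per kilobase in mRNA and 0.354 in long RNA, so they are imprecise. As a share of the summed level of all collagen chain genes, the type I pair made up 3.55% in Drosha-deficient and 44.4% in wild-type mRNA, and 0.204% and 24.0% in long RNA. These are bulk samples, in which fewer cells that make a collagen and less of its RNA per cell cannot be told apart.

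Col3a1 (chr1:45311538-45349706), the chain of type III collagen, which is found with type I in skin and vessel walls, had 0.0573 FPKM in Drosha-deficient and 1.80 FPKM in wild-type mRNA, 31.4-fold lower. Its long RNA levels were 0.00824 FPKM in Drosha-deficient and 1.08 FPKM in wild-type cells. The gene was called lower in both fractions and was near the filter in wild type, and its Drosha-deficient values correspond to 1.39 fragments per kilobase in mRNA and 0.180 in long RNA.

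Type V collagen sits inside type I fibrils and sets how they start and how thick they grow. Col5a1 (chr2:27882925-28039514) had 6.13 FPKM in Drosha-deficient and 12.2 FPKM in wild-type mRNA, 1.99-fold lower, and did not reach the call at a log2 difference of -0.89. In long RNA it was called lower, with 1.51 FPKM in Drosha-deficient and 5.89 FPKM in wild-type cells, 3.90-fold lower. Its partner Col5a2 stayed close to wild type, at 0.991 FPKM in Drosha-deficient and 1.03 FPKM in wild-type mRNA and at 0.923 FPKM and 1.22 FPKM in long RNA. Col5a3 had 0.481 FPKM in Drosha-deficient and 1.14 FPKM in wild-type mRNA, with no call, and did not pass in long RNA. The type V chains thus had unequal differences. Col5a2 lies 24.6 kb from Col3a1 on chromosome 1, where the 2 neighbours differed in their calls.

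The fibrillar chains known best from cartilage had no call. Col2a1, the chain of type II collagen, had 2.76 FPKM in Drosha-deficient and 2.11 FPKM in wild-type mRNA, and 1.26 FPKM and 1.28 FPKM in long RNA; it is the 1 gene among the 15 that passed in both fractions whose difference changed sign. Col11a1, a chain of the type XI collagen in the core of cartilage fibrils, had 1.03 FPKM in Drosha-deficient and 1.68 FPKM in wild-type mRNA and 0.688 FPKM and 1.36 FPKM in long RNA, 1.63-fold and 1.98-fold lower. Col27a1 had 1.01 FPKM in Drosha-deficient and 0.708 FPKM in wild-type mRNA. Col2a1 was thus close to wild type, Col11a1 below it in both fractions and Col27a1 above it in mRNA.

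**Figure D2:**
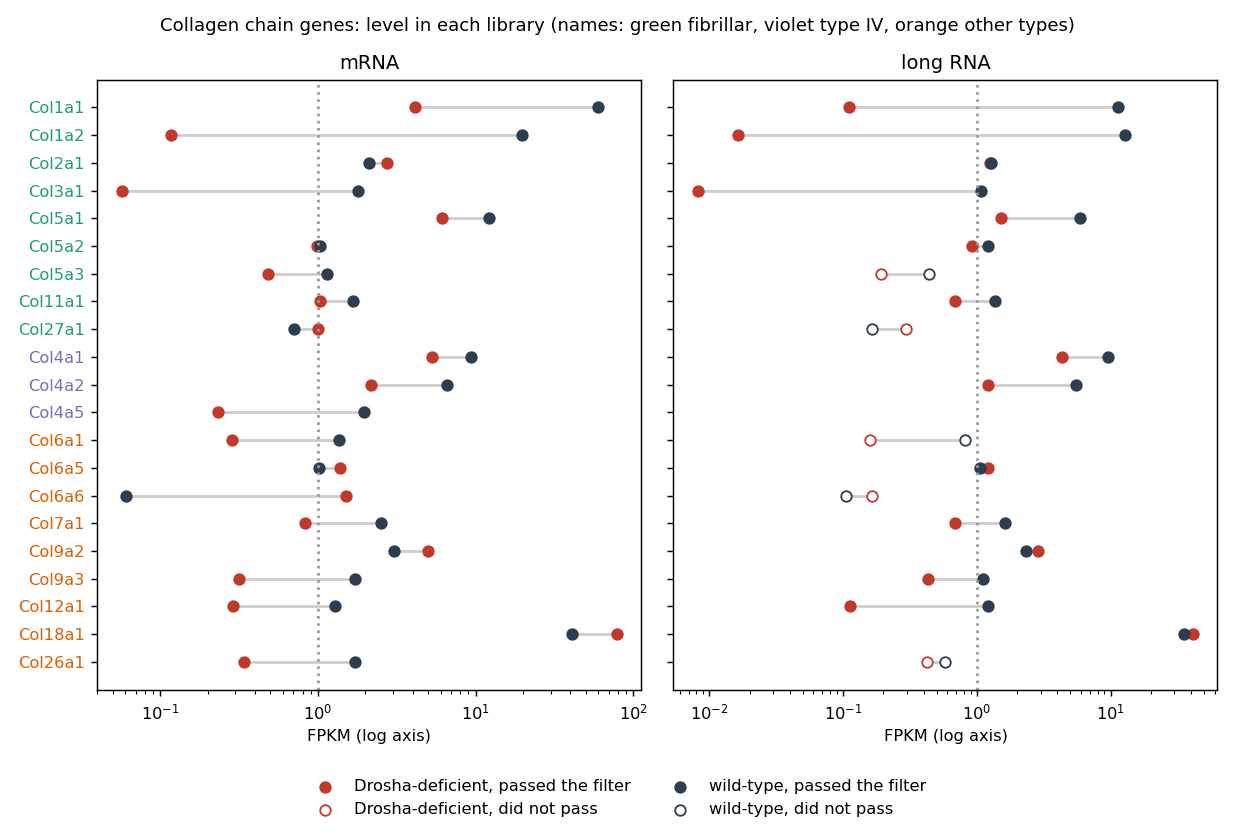
Level in FPKM (log axis) of the 21 collagen chain genes that passed the filter in mRNA or long RNA, 1 library per point, red for Drosha-deficient and dark blue for wild-type, open where the gene did not pass in that fraction; the dotted line marks 1 FPKM. Col1a1, Col1a2 and Col3a1 have long bars with the Drosha-deficient point at the left in both fractions, and Col18a1 has the highest Drosha-deficient level at 78.4 FPKM (mRNA) and 41.2 FPKM (long RNA).

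The type IV genes lay below wild type throughout, all 6 in mRNA and all 5 in long RNA whether they passed or not. For Col4a3, Col4a4 and Col4a6, which did not pass, this direction carries little weight. In long RNA Col4a4 had an estimated 0.0933 fragments per kilobase in Drosha-deficient and 0.0944 in wild-type cells, and Col4a3 0.0347 and 0.112. In mRNA 3 of 6 passed, 2 were called lower and 1 had neither call, with a median log2 difference of -1.26 and sums of 7.80 FPKM in Drosha-deficient and 18.2 FPKM in wild-type cells. In long RNA 2 of 5 passed, 1 was called lower and 1 was not, with sums of 5.63 FPKM in Drosha-deficient and 15.4 FPKM in wild-type cells, 2.74-fold lower. Of all rows that passed, 7.93% were called lower in mRNA and 6.89% in long RNA. In mRNA 1 of the 3 genes, Col4a5, passed only through its wild-type level, which shapes the count and the median. Col4a1 and Col4a2 encode the chains present in nearly all basement membranes, including the first ones of the embryo. Col4a1 had 5.33 FPKM in Drosha-deficient and 9.37 FPKM in wild-type mRNA, and 4.36 FPKM and 9.65 FPKM in long RNA, 1.76-fold and 2.22-fold lower and with no call in either, at -0.71 and -0.99. Col4a2 was called lower in both fractions, with 2.19 FPKM in Drosha-deficient and 6.60 FPKM in wild-type mRNA, 3.02-fold lower, and 1.20 FPKM and 5.54 FPKM in long RNA, 4.61-fold lower. The Col4a1 to Col4a2 ratio was 2.44 in Drosha-deficient and 1.42 in wild-type mRNA, and 3.62 in Drosha-deficient and 1.74 in wild-type long RNA.

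Col4a5 (chrX:141475385-141689234), a chain of the kidney filter's basement membrane that is mutated in Alport syndrome, had 0.233 FPKM in Drosha-deficient and 1.95 FPKM in wild-type mRNA, 8.37-fold lower, and was called lower. In long RNA the row it shares with the predicted gene Gm15268 had 0.344 FPKM in Drosha-deficient and 1.11 FPKM in wild-type cells, 3.22-fold lower, without a call. Its neighbour Col4a6, 1.27 kb away, was at 0.0174 FPKM in Drosha-deficient and 0.106 FPKM in wild-type mRNA and did not pass.

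Promoters of Col1a2 and Col3a1, called lower in both fractions, of the neighbours Col4a1 and Col4a2, whose windows overlap, and of Col6a6 are shown with motifs a search found in capitals; Col4a2 was called lower in both fractions and Col4a1 in neither. RefSeq (GRCm38.p6) gave 300-base windows around the transcript start for 35 of the 44 genes; Col1a1, Col2a1, Col4a3, Col5a2, Col9a3, Col12a1, Col14a1, Col22a1 and Col26a1 were not matched. Motifs were searched on both strands, so a capital run can be a motif or its reverse complement. The motif CCAAT was found in the windows of 34.3% of the 35 genes and in 37.4% of all 32851 windows. The motif GGGCGG was found in 62.9% of the genes and 35.7% of all windows. The motif TATAAA was found in 14.3% of the genes and 13.6% of all windows. The first window listed was used for each collagen gene, whereas all windows include further windows of some genes. The shares above and the CpG medians below thus do not compare quite like with like. Each sequence is given 5′ to 3′ on the gene's own strand, and a match is a description, not a binding site.
Col1a2, chr6:4505368-4505667, plus strand: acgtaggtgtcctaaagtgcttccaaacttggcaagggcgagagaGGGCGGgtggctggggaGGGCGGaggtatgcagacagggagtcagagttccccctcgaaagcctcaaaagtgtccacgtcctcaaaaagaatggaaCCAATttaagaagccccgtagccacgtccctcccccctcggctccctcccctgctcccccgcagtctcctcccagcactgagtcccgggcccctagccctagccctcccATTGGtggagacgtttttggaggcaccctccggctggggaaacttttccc
Col3a1, chr1:45311288-45311587, plus strand: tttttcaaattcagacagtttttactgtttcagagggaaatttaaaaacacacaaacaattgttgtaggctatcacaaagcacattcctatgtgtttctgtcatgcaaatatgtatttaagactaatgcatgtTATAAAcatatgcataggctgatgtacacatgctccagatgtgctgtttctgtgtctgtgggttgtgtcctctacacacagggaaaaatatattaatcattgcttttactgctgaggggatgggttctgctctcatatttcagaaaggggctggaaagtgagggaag
Col4a1, chr8:11312777-11313076, minus strand: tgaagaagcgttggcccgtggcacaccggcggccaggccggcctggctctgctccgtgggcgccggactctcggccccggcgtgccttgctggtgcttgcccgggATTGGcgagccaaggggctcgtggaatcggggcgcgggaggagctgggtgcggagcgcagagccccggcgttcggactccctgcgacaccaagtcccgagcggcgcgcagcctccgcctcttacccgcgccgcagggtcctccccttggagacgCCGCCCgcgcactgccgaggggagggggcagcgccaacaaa
Col4a2, chr8:11312555-11312854, plus strand: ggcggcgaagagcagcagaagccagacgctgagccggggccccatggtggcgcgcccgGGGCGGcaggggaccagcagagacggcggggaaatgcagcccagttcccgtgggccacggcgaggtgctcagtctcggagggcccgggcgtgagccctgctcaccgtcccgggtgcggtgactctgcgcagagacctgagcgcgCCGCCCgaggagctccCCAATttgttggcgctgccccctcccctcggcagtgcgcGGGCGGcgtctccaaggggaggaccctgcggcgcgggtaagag
Col6a6, chr9:105828036-105828335, minus strand: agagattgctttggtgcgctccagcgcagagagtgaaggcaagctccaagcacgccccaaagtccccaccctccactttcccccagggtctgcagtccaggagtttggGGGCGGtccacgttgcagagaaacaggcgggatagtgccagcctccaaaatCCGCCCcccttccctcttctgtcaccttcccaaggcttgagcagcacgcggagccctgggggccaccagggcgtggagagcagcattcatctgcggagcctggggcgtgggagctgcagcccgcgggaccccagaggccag
The Col1a2 window held 13 CpG dinucleotides, 2 CCAAT matches and 2 GGGCGG matches, whereas the Col3a1 window held no CpG and 1 TATAAA match, so the 2 fibrillar genes with windows that were called lower in both fractions had unlike promoters. The median was 12 CpG over the collagen genes and 7 over all windows. Col6a6, the gene called higher in mRNA, is shown for contrast and had 14 CpG and 2 GGGCGG matches. Col4a1 and Col4a2 are transcribed away from each other, and their windows overlap by 78 bases (chr8:11312777-11312854), with 37 CpG in the Col4a1 and 33 in the Col4a2 window. Their RefSeq transcripts overlap by 22 bases at the starts listed for these windows. The labels do not state whether the strand was used in counting, so fragments from such an overlap cannot be assigned to 1 gene with certainty; 23 of the 44 genes overlap another RefSeq gene.

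Other collagen types moved in both directions. In mRNA 9 of 27 passed, 2 were called lower, 1 higher and 6 neither, and the summed level was 93.8 FPKM in Drosha-deficient and 60.5 FPKM in wild-type cells. In long RNA 6 of 27 passed and 0 were called, with sums of 51.6 FPKM in Drosha-deficient and 49.4 FPKM in wild-type cells. The mRNA calls were 22.2% lower and 11.1% higher, against 7.93% and 8.64% of all rows that passed. Only through wild type passed 5 of the 9 in mRNA and 3 of the 6 in long RNA, which shapes these counts. Only through Drosha-deficient passed 1 in mRNA and 0 in long RNA. Without a filter, 14 were below and 13 above wild type in each fraction.

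Col18a1 (chr10:77032241-77166548) set most of these sums. It encodes a basement membrane collagen that carries heparan sulfate and gives rise to the fragment endostatin. Its level was 78.4 FPKM in Drosha-deficient and 40.6 FPKM in wild-type mRNA, 1.93-fold higher and, at a log2 difference of 0.93, just short of the call. In long RNA it was 41.2 FPKM in Drosha-deficient and 35.6 FPKM in wild-type cells, 1.16-fold higher. It made up 66.1% of the summed collagen level in Drosha-deficient and 22.7% in wild-type mRNA, and 66.0% and 35.3% in long RNA.

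With Col18a1 counted, the sum of all collagen chain genes was 118.6 FPKM in Drosha-deficient and 179.0 FPKM in wild-type mRNA, 1.51-fold lower. Without it the sum was 40.2 FPKM in Drosha-deficient and 138.4 FPKM in wild-type mRNA, 3.44-fold lower. The same step took long RNA to 21.2 FPKM in Drosha-deficient and 65.2 FPKM in wild-type cells, 3.08-fold lower, where the full sums were 62.4 FPKM and 100.8 FPKM, 1.62-fold lower. The counts of genes called did not change without Col18a1.

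**Figure D3:**
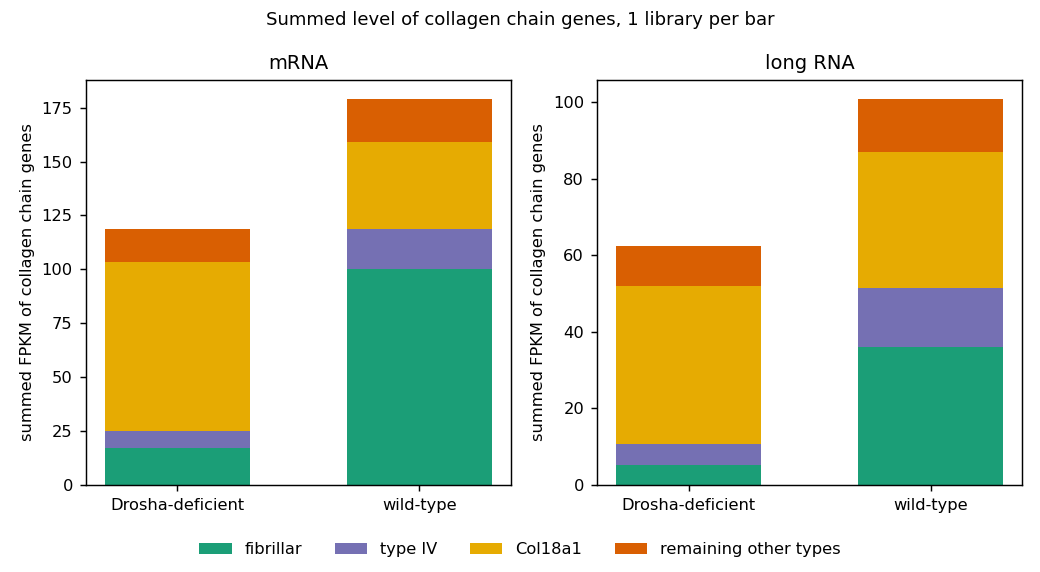
Summed FPKM of all collagen chain genes in each library, 1 library per bar, stacked by fibrillar, type IV, Col18a1 and the remaining other types. Col18a1 fills 66.1% of the Drosha-deficient mRNA bar and 22.7% of the wild-type one, and the fibrillar part is 17.0 FPKM in Drosha-deficient and 100.3 FPKM in wild-type mRNA.

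Type VI collagen forms beaded microfibrils around cells, with Col6a1 as a chain every molecule needs and Col6a5 and Col6a6 as alternative chains. Col6a6 (chr9:105687809-105828160) was the 1 collagen gene called higher in mRNA, at 1.51 FPKM in Drosha-deficient and 0.0610 FPKM in wild-type cells, or 36.5 and 1.31 estimated fragments per kilobase. In long RNA it did not pass, at 0.166 FPKM in Drosha-deficient and 0.106 FPKM in wild-type cells. Col6a5, 27.8 kb away, was close to wild type, at 1.39 FPKM in Drosha-deficient and 1.01 FPKM in wild-type mRNA and at 1.21 FPKM and 1.05 FPKM in long RNA. Col6a1 lay on the other side, at 0.285 FPKM in Drosha-deficient and 1.36 FPKM in wild-type mRNA, 4.76-fold lower by FPKM but without a call at -0.88, and did not pass in long RNA, at 0.159 FPKM and 0.818 FPKM. In mRNA 3 of the 6 type VI genes passed, with 1 higher call and 0 lower calls. Of all rows that passed, 8.64% were higher and 7.93% lower. Col6a6 passed only through its Drosha-deficient level and Col6a1 only through its wild-type level, so these counts say little about the type.

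Among the collagens that sit on the surface of fibrils, Col9a3 was called lower in mRNA, at 0.315 FPKM in Drosha-deficient and 1.71 FPKM in wild-type cells, 5.43-fold lower. In long RNA, at 0.434 FPKM in Drosha-deficient and 1.11 FPKM in wild-type cells, it was not called. Col9a2, whose chain assembles with that of Col9a3 in cartilage type IX collagen, was above wild type in both fractions without a call, at 5.02 FPKM in Drosha-deficient and 3.04 FPKM in wild-type mRNA and at 2.89 FPKM and 2.33 FPKM in long RNA. The type IX partners thus differed in direction. Col12a1, the chain of a collagen found along type I fibrils, had 0.289 FPKM in Drosha-deficient and 1.29 FPKM in wild-type mRNA, 4.47-fold lower, and 0.113 FPKM and 1.22 FPKM in long RNA, 10.8-fold lower. Its log2 difference of -0.99 in long RNA was just short of the call.

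Col7a1, which forms the fibrils that anchor skin to its basement membrane, had 0.824 FPKM in Drosha-deficient and 2.51 FPKM in wild-type mRNA, and 0.681 FPKM and 1.64 FPKM in long RNA, with no call at -0.94 and -0.65. Col26a1 was called lower in mRNA, at 0.338 FPKM in Drosha-deficient and 1.73 FPKM in wild-type cells, and did not pass in long RNA, at 0.422 FPKM and 0.580 FPKM. The genes nearest to the call were thus Col26a1 at -1.03 and Col9a3 at -1.04 just inside it in mRNA, with Col7a1 and Col18a1 just outside, and in long RNA Col3a1 at -1.05 inside, with Col12a1 and Col4a1 outside.

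The remaining 23 genes in mRNA did not pass: 13 were not tested by the authors' software and 10 had status OK with both values under 1 FPKM. Their levels ran between 0.00762 and 0.892 FPKM in Drosha-deficient and between 0 and 0.973 FPKM in wild-type cells, with 12 below and 11 above wild type. The highest was Col8a1, a network collagen of vessels and cornea, at 0.0152 FPKM in Drosha-deficient and 0.973 FPKM in wild-type mRNA, a large ratio that the filter left out of the counts. In long RNA 28 did not pass, 17 below and 11 above wild type, and the highest was Col6a4 at 0.883 FPKM in Drosha-deficient and 0.465 FPKM in wild-type cells. Col10a1, known from hypertrophic cartilage, was listed at 0 in wild type in both fractions.

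Set side by side, mRNA and long RNA mostly gave a gene the same direction. Of the 15 genes that passed in both, 11 were below wild type in both, 3 were above in both and 1 had opposite signs. Lower in both were 4 genes, Col1a1, Col1a2, Col3a1 and Col4a2, and 9 had neither call in both. Col9a3 was called lower in mRNA only and Col5a1 in long RNA only. How often other rows had the same direction or call in both fractions was not computed, so these counts have no background. Both fractions came from cells of the same genotypes, and the labels do not say whether they came from separate cultures, so long RNA is no independent replicate of mRNA.

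**Figure D4:**
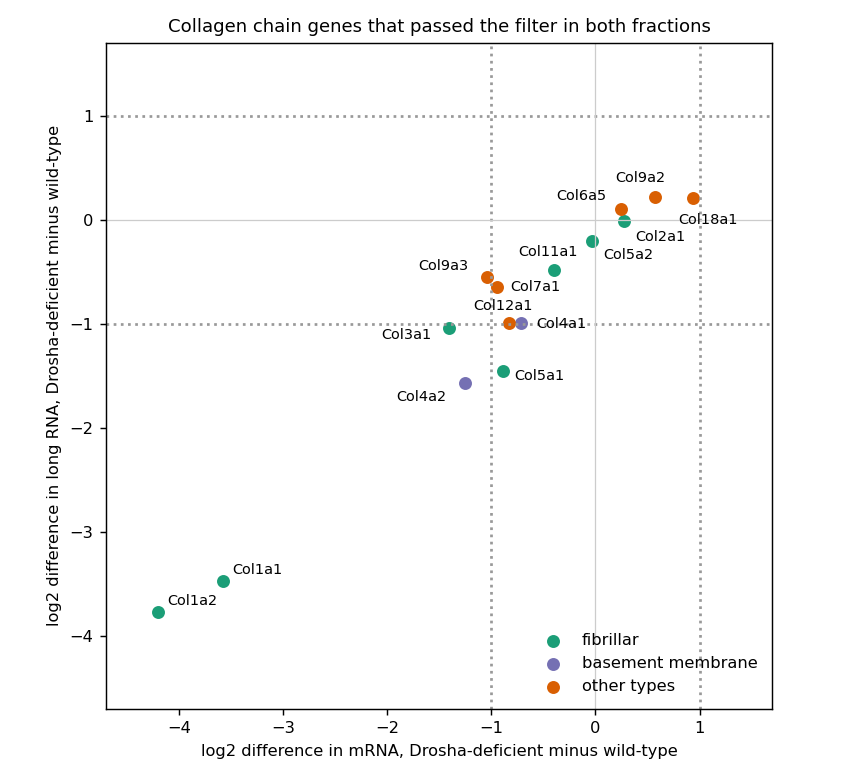
Log2 differences on the log2(FPKM + 1) scale, Drosha-deficient minus wild-type, of the 15 collagen chain genes that passed in both fractions, mRNA on the x axis and long RNA on the y axis; dotted lines mark the 2-fold call. Col1a1 and Col1a2 lie far to the lower left, at -3.58 and -4.20 in mRNA, and no gene lies past the upper call in both fractions.

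In the authors' deposited table of each fraction, 19 rows of all were marked significant and 0 were collagen chain genes. The authors' deposited table for mRNA gave an unadjusted p under 0.05 to 5 of the 31 collagen genes with status OK: Col1a1, Col1a2, Col3a1 and Col6a1, all lower, and Col6a6, higher. Its smallest p among them was 0.0004 for Col1a2, with q = 0.193. The authors' deposited table for long RNA gave an unadjusted p under 0.05 to 5 of 24 such genes, Col1a1, Col1a2, Col3a1, Col5a1 and Col12a1, all lower, and its smallest was 0.00385 for Col1a1, with q = 0.565. These values compare 1 library with 1 library, not the genotypes. The share of all rows with an unadjusted p under 0.05 was not computed, so the 2 counts of collagen genes show no excess.

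The calls of the related gene lists that follow are to be read against all rows that passed, of which 7.93% were lower and 8.64% higher in mRNA and 6.89% lower and 6.26% higher in long RNA. As lists, the genes that fold and ship procollagen had few calls and medians near 0, while single members lay below wild type. At any size, 6 folding and modification genes were below and 12 above wild type in mRNA, and 9 and 9 in long RNA. Of 18 folding and modification genes 15 passed in each fraction; in mRNA 0 were called lower and 1 higher, with a median log2 difference of 0.15, and in long RNA 1 was called lower and 0 higher, with a median of 0.02. P4hb, the shared subunit of prolyl 4-hydroxylase, had 552 FPKM in Drosha-deficient and 466 FPKM in wild-type mRNA, and its catalytic partner P4ha1 had 26.1 FPKM and 47.1 FPKM. In long RNA P4ha1 had 14.9 FPKM in Drosha-deficient and 29.0 FPKM in wild-type cells. It was thus below wild type in both fractions, without a call. Ppib, the prolyl isomerase cyclophilin B, was at 154 FPKM in Drosha-deficient and 147 FPKM in wild-type mRNA. Crtap, part of the prolyl 3-hydroxylation complex with Ppib, was called higher in mRNA at 54.1 FPKM in Drosha-deficient and 20.2 FPKM in wild-type cells. The single lower call in long RNA was Serpinh1, the collagen chaperone HSP47, named after its values were seen, at 16.2 FPKM in Drosha-deficient and 35.1 FPKM in wild-type cells; in mRNA it had 24.1 FPKM and 46.3 FPKM, without a call.

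Export genes had 0 calls in either direction, with 9 of 10 passing in mRNA (median 0.16) and 7 of 10 in long RNA (median 0.11). Mia3 (TANGO1), which loads procollagen into carriers at exit sites of the endoplasmic reticulum, had 23.2 FPKM in Drosha-deficient and 15.1 FPKM in wild-type mRNA. Its partner Ctage5 had 62.7 FPKM in Drosha-deficient and 37.5 FPKM in wild-type mRNA. The coat components Sec23a and Sar1b had 39.1 FPKM and 35.4 FPKM in Drosha-deficient and 20.6 FPKM and 46.2 FPKM in wild-type mRNA.

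Genes that trim propeptides and crosslink collagen outside the cell were mixed. Of 13 such genes 7 passed in each fraction, with 2 lower and 1 higher in mRNA (median -0.39) and 3 lower and 1 higher in long RNA (median -0.80). Of these 7, 1 in mRNA and 2 in long RNA passed only through their wild-type level. Bmp1, the protease that removes the C-propeptides of fibrillar procollagens, was called lower in both fractions, at 1.83 FPKM in Drosha-deficient and 12.6 FPKM in wild-type mRNA and at 1.22 FPKM and 8.16 FPKM in long RNA. Pcolce2, an enhancer of that cleavage, was called higher in both, at 36.0 FPKM in Drosha-deficient and 8.84 FPKM in wild-type mRNA and at 11.5 FPKM and 4.12 FPKM in long RNA. Protease and enhancer thus had opposite calls. Loxl2, a lysyl oxidase that crosslinks collagen, was called lower in both, at 2.38 FPKM in Drosha-deficient and 8.84 FPKM in wild-type mRNA and at 1.16 FPKM and 4.80 FPKM in long RNA. Pxdn, the peroxidase that crosslinks type IV collagen, had 8.38 FPKM in Drosha-deficient and 11.3 FPKM in wild-type mRNA, without a call. The third lower call in long RNA was Loxl3, another lysyl oxidase, named after its values were seen, at 0.129 FPKM in Drosha-deficient and 1.29 FPKM in wild-type cells.

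Collagen receptors had 0 calls among 5 that passed in each fraction, the median being 0.54 in mRNA and -0.02 in the long fraction. The integrin beta 1 chain gene Itgb1 had 97.4 FPKM in Drosha-deficient and 106 FPKM in wild-type mRNA. The receptor tyrosine kinase gene Ddr1 had 16.5 FPKM in Drosha-deficient and 11.0 FPKM in wild-type mRNA. Gpr56, a receptor for type III collagen, had 8.23 FPKM in Drosha-deficient and 4.77 FPKM in wild-type mRNA, and the endocytic receptor Mrc2 had 3.43 FPKM and 3.05 FPKM. Ddr2, a kinase receptor for fibrillar collagens named after its values were seen, was above wild type without a call, at 1.36 FPKM in Drosha-deficient and 0.318 FPKM in wild-type mRNA and at 1.28 FPKM and 0.167 FPKM in long RNA; its log2 difference of 0.97 in long RNA was just short of the call.

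Genes of collagen breakdown had 8 of 13 passing in each fraction, with 2 called lower in mRNA (median -0.68) and 0 in long RNA (median -0.63); higher was called for 0 in both. The cathepsin gene Ctsl was called lower in mRNA, at 64.8 FPKM in Drosha-deficient and 133 FPKM in wild-type cells, and the inhibitor Timp1 and the gelatinase Mmp2 had no call, at 15.8 FPKM and 15.3 FPKM in Drosha-deficient and 31.9 FPKM and 26.6 FPKM in wild-type mRNA. Ctsb had 17.6 FPKM in Drosha-deficient and 25.7 FPKM in wild-type mRNA. The other lower call in mRNA was the gelatinase Mmp9, named after its values were seen, at 0.954 FPKM in Drosha-deficient and 4.14 FPKM in wild-type cells.

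Proteins that share the basement membrane with type IV and type XVIII collagen were mostly near wild type. Of 17 genes 13 passed in mRNA, with 1 lower and 1 higher (median 0.18), and 12 in long RNA, with 1 lower and 0 higher (median -0.02). Lamc1, the laminin chain of the early embryo's basement membranes, had 103 FPKM in Drosha-deficient and 61.8 FPKM in wild-type mRNA, and Nid2, which links laminin to collagen IV, had 78.3 FPKM and 64.1 FPKM. The heparan sulfate proteoglycan gene Agrn had 65.0 FPKM in Drosha-deficient and 73.6 FPKM in wild-type mRNA. The higher call in mRNA was Nid1, named after its values were seen, at 35.3 FPKM in Drosha-deficient and 16.8 FPKM in wild-type cells.

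Partners of fibrillar collagen in the matrix had lower calls and no higher ones. Of 19 genes 11 passed in mRNA, where 6 (54.5%) were called lower, against 7.93% of all rows, and 0 higher (median -1.08). In long RNA 10 passed, where 4 (40.0%) were called lower, against 6.89% of all rows, and 0 higher (median -0.46). In mRNA 5 of the 11, and in long RNA 4 of the 10, passed only through their wild-type level, which shapes these counts. Postn (periostin), which binds type I collagen, had 0.0147 FPKM in Drosha-deficient and 2.03 FPKM in wild-type mRNA and 0.00299 FPKM and 2.29 FPKM in long RNA. Tnc (tenascin C) had 0.549 FPKM in Drosha-deficient and 3.36 FPKM in wild-type mRNA and 0.360 FPKM and 3.63 FPKM in long RNA. Both were called lower in both fractions. So were Thbs1 (thrombospondin 1), at 10.1 FPKM in Drosha-deficient and 27.4 FPKM in wild-type mRNA, and the small proteoglycan Bgn (biglycan), at 0.334 FPKM in Drosha-deficient and 3.77 FPKM in wild-type mRNA. The most abundant partners had no call: Sparc had 219 FPKM in Drosha-deficient and 222 FPKM in wild-type mRNA, Fn1 (fibronectin) 179 FPKM and 209 FPKM, and Fbln1 (fibulin 1) 29.2 FPKM and 21.9 FPKM.

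TGF-beta is the growth factor best known for raising collagen transcription. Of 16 genes of its signalling 12 passed in mRNA, with 4 (33.3%) lower, against 7.93% of all rows, and 0 higher (median 0.10). In long RNA 11 passed, with 3 (27.3%) lower, against 6.89% of all rows, and 0 higher (median -0.27). Tgfb1 was called lower in both, at 4.62 FPKM in Drosha-deficient and 15.3 FPKM in wild-type mRNA and at 1.11 FPKM and 4.67 FPKM in long RNA. Tgfb2 was as well, at 0.370 FPKM in Drosha-deficient and 2.36 FPKM in wild-type mRNA and at 0.147 FPKM and 1.90 FPKM in long RNA. Both of these ligands were thus lower in Drosha-deficient cells in each fraction, and their part in the collagen levels was not tested. In this list 2 genes in mRNA and 1 in long RNA passed only through their wild-type level, which shapes the counts. At any size, 8 of the 16 genes were below and 8 above wild type in mRNA, and 13 and 3 in long RNA. Ltbp4, which stores latent TGF-beta in the matrix, had 68.3 FPKM in Drosha-deficient and 53.8 FPKM in wild-type mRNA, without a call. Ltbp3, named after its values were seen, was also called lower in mRNA, at 0.494 FPKM in Drosha-deficient and 2.34 FPKM in wild-type cells.

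**Figure D5:**
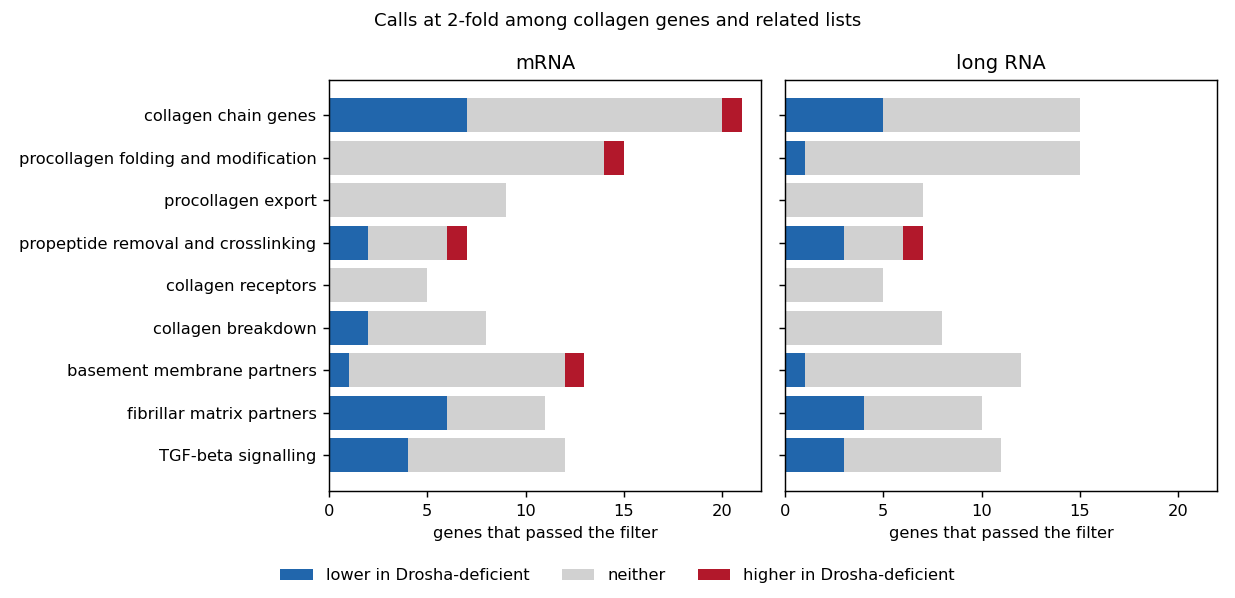
Number of genes that passed the filter in each list, split by call (lower in Drosha-deficient cells, neither, higher), in mRNA on the left and long RNA on the right. Collagen chain genes, fibrillar matrix partners and TGF-beta signalling have 7, 6 and 4 lower calls in mRNA, while procollagen export and collagen receptors have 0 calls in both fractions.

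Markers of other cell types that make collagen were read beside these results. Fibroblast or other mesenchyme markers, chosen without collagens, had 9 of 15 passing in each fraction, with 5 lower and 0 higher in mRNA (median -1.40) and 4 lower and 0 higher in long RNA (median -0.99). Of these, 3 in mRNA and 5 in long RNA passed only through their wild-type level, so the counts and medians rest partly on which markers could pass. Of the 15 markers, Postn, Dcn, Lum and Fbn1 are also in the list of matrix partners. The summed level was 18.6 FPKM in Drosha-deficient and 115 FPKM in wild-type mRNA, and 11.4 FPKM and 78.6 FPKM in long RNA. Much of it came from the contractile genes Acta2, at 1.41 FPKM in Drosha-deficient and 28.4 FPKM in wild-type mRNA, and Tagln, at 5.79 FPKM and 65.0 FPKM. Postn, counted above among the matrix partners, and S100a4, at 0.287 FPKM in Drosha-deficient and 3.28 FPKM in wild-type mRNA, were the others called lower in both fractions. The fifth lower call in mRNA was Twist2, a transcription factor of mesenchyme named after its values were seen, at 0.0911 FPKM in Drosha-deficient and 1.88 FPKM in wild-type cells. Its paralog Twist1 was above wild type without a call, at 3.56 FPKM in Drosha-deficient and 1.68 FPKM in wild-type mRNA and at 2.84 FPKM and 1.29 FPKM in long RNA. Of the others that passed in mRNA without a call, Thy1 had 3.65 FPKM in Drosha-deficient and 8.03 FPKM in wild-type cells, Pdgfrb 1.06 FPKM and 2.34 FPKM, and Fbn1 1.10 FPKM and 0.680 FPKM. The markers thus differed in direction among themselves. The 6 that did not pass in mRNA included genes near 0 in both genotypes: Prrx1 had 0.0237 FPKM in Drosha-deficient and 0.142 FPKM in wild-type mRNA, Lum 0.0191 FPKM in Drosha-deficient and was listed at 0 in wild type, and Fap 0.000524 FPKM and 0.00179 FPKM. Dcn (decorin), which binds collagen fibrils, did not pass and lay on the other side, at 0.999 FPKM in Drosha-deficient and 0.0752 FPKM in wild-type mRNA. The summed level of mesenchymal markers thus moved with type I collagen, and their part in the result was not tested.

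The summed level of ES cell markers did not move with it. All 8 passed in mRNA with 0 called, a median of -0.02 and a sum of 2180 FPKM in Drosha-deficient and 2132 FPKM in wild-type cells. All 7 passed in long RNA with 0 called, a median of -0.15 and a sum of 879 FPKM in Drosha-deficient and 917 FPKM in wild-type cells. At any size, 4 were below and 4 above wild type in mRNA, and 5 and 2 in long RNA. The largest difference in long RNA was that of Klf4, named after its values were seen. It had 5.30 FPKM in Drosha-deficient and 10.6 FPKM in wild-type cells, without a call at -0.88. Pou5f1 had 700 FPKM in Drosha-deficient and 562 FPKM in wild-type mRNA, and Nanog 207 FPKM and 192 FPKM. Endoderm markers, chosen without collagens and laminins because parietal endoderm secretes much type IV collagen, had 3 of 9 passing in mRNA with 1 lower, Dab2 (1.45 FPKM in Drosha-deficient and 5.54 FPKM in wild-type cells), and 2 of 9 in long RNA with 0 called. Their sum was 224 FPKM in Drosha-deficient and 231 FPKM in wild-type mRNA and 75.4 FPKM and 101 FPKM in long RNA, almost all of it Sparc. Gata4 passed in both fractions without a call, at 2.45 FPKM in Drosha-deficient and 0.855 FPKM in wild-type mRNA and at 1.02 FPKM and 1.22 FPKM in long RNA. Sox17, Sox7, Gata6 and Foxq1 were each under 1 FPKM in all 4 libraries. Endothelial markers had 3 of 6 passing in mRNA with 1 lower, Plvap (0.493 FPKM in Drosha-deficient and 2.27 FPKM in wild-type cells), and sums of 6.47 FPKM in Drosha-deficient and 7.08 FPKM in wild-type cells; in long RNA 1 of 6 passed with 0 called, with sums of 5.53 FPKM in Drosha-deficient and 3.76 FPKM in wild-type cells. The most abundant of them, Tek, was above wild type without a call, at 4.42 FPKM in Drosha-deficient and 2.14 FPKM in wild-type mRNA and at 4.37 FPKM and 2.18 FPKM in long RNA. Chondrocyte markers had 0 calls, with 2 of 5 passing in mRNA and 1 of 5 in the long fraction, and sums of 3.36 FPKM in Drosha-deficient and 3.50 FPKM in wild-type mRNA and 2.54 FPKM and 3.22 FPKM in long RNA. In mRNA the difference between the summed levels of these 3 marker lists was thus small beside that of mesenchyme. The endoderm sum follows Sparc, however, and says little about the other endoderm markers. At any size, 6 of the 9 endoderm markers were below and 3 above wild type in mRNA. In long RNA 9 were below and 0 above, though 7 of them did not pass the filter.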

How the data were processed

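RNA of mouse ES cells was measured in mRNA, long RNA and short RNA, with 1 library per genotype and fraction. The authors deposited 3 gene tables in FPKM, with p-values, q-values and a status from Cuffdiff, per the file headers. Per the submitters' processing notes, the tools were TopHat2 2.0.10, Cufflinks 2.1.1 and Cuffdiff on mm10/GRCm38; the notes and labels at hand state no annotation, strand setting or library scaling. No sample is titled long RNA: that table was assigned to the total RNA samples by elimination. The 3 Dnmt1-deficient RNA samples and 3 methylation samples were not analysed here.

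From the FPKM values, log2((Drosha-deficient + 1)/(wild-type + 1)) was computed per row over the whole table with pandas 2.3.3 on Python 3.11.15, since FPKM are not counts and 1 library per group allows no test. Rows passed with status OK and at least 1 FPKM in 1 of both libraries, and a size of at least 1 (2-fold) was called. The worth of 1 fragment came from the lowest values of 917 olfactory receptor rows of 900 to 1100 bases; in Drosha-deficient mRNA, for instance, 33 of 34 values above 0 were whole multiples within 0.05. The script was tested on simulated data. The members and lists were chosen with earlier results of these data known. Named were every collagen gene that passed in mRNA or long RNA, the highest of the others, and up to 4 genes of each list, first those with the same call in both fractions and then those of highest level; genes outside this rule are given as such. Some list members are counted but not reported by name here. Alternatives changed the pseudocount, the minimum level, the centring and the call. RefSeq tables of GRCm38.p6 gave sequences and gene positions.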

Additional observations from a re-analysis of the deposited data

How the results depend on the processing

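No paired analysis was possible because each genotype had 1 library per fraction, and no replicate could be left out for the same reason. The median log2 difference stayed below 0 under the alternatives tried, between -1.09 and -0.09 in mRNA and between -1.51 and -0.09 in long RNA. In mRNA the 7 lower calls became 11 with a pseudocount of 0.1 FPKM, 2 with 5 FPKM, 3 with a minimum of 5 FPKM, 12 at 1.5-fold and 2 at 4-fold, while the share of all rows called lower was 12.8%, 2.53%, 7.41%, 19.4% and 0.691%. With the minimum of 5 FPKM, 7 collagen genes passed, where 21 did in the main setting. The authors' significant column called 0. The 1 higher call became 2 at 1.5-fold, where 19.0% of all rows were higher, and 0 with a pseudocount of 5 FPKM, a minimum of 5 FPKM, a minimum on the mean of both libraries, at 4-fold and by the authors' column. In long RNA the 5 lower calls became 9 with a pseudocount of 0.1 FPKM, 2 with 5 FPKM, 8 at 1.5-fold and 2 at 4-fold, while 11.4%, 2.40%, 17.3% and 0.926% of all rows were called lower; the authors' column called 0, and higher calls were 0 under all alternatives. Without a minimum level the calls stayed at 7 and 5 lower, but that median was -0.09 in both fractions, since the genes added are near 0; centring on the median of all rows left 7 and 5. Leaving out Col18a1, chosen after seeing the data, moved no count of calls. Members at a few hundredths of an FPKM rest on few fragments, so their ratios are imprecise while their log2(FPKM + 1) differences understate them.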
